A study of Mus musculus with 6 samples.

Results

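The genes described here are 10 regulators and markers of the epithelial-mesenchymal transition (EMT): the transcription factor genes Zeb1, Zeb2, Snai1, Snai2, Twist1, Twist2 and Prrx1, the classical cadherin genes Cdh1 and Cdh2, and the intermediate filament gene Vim. They were chosen by symbol from a list, with earlier results of these data known. Each of the 10 matched 1 of the 55334 gene rows of the counts table. Expression was measured by polyA RNA sequencing in sorted cells of Lewis lung carcinoma, a mouse lung tumour line that carried green fluorescent protein (GFP). In 3 libraries (Scramble) the cells carried a scrambled guide RNA, and in 3 libraries (JAG2KO, named JagKO2, JagKO3 and JagKO4 in the table) a guide RNA against Jag2, a Notch ligand gene. Cells of both groups were grown as flank tumours in mice, collected at endpoint and sorted as GFP-positive, CD45-negative and DAPI-negative. The strain, age and sex of the mice, the time of collection and whether a line was 1 clone or a pool are not given in the labels. Nor is it stated that the libraries of a group came from different mice. The p-values therefore reflect the spread among these samples alone, which may be technical.

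In an epithelial-mesenchymal transition, cells lose the junctions that hold an epithelium together and take on the shape and motility of mesenchymal cells. Snail, Zeb and Twist proteins bind E-box motifs and repress epithelial genes, among them Cdh1, while mesenchymal genes such as Cdh2 and Vim rise. Zeb factors and the miR-200 family of microRNAs repress each other, and Snail and Twist factors lie upstream of Zeb genes in several settings. Lung carcinoma lines range from epithelial to mesenchymal, and Jagged-Notch signalling is among the pathways known to feed into these factors.

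The largest difference was in Cdh2, the N-cadherin gene, which rose 3.39-fold in JAG2KO. The transcription factor genes moved by far less and in both directions: Zeb1, Zeb2 and Prrx1 rose by 25.1%, 29.4% and 14.9%, whereas Snai2 fell by 30.6%, Twist1 fell by 27.1% and Twist2 fell by 21.2%. For Snai1, Cdh1 and Vim no difference passed the test. In all, 4 members were higher, 3 lower and 3 not past the threshold, an adjusted p under 0.05 in the edgeR quasi-likelihood test with Benjamini-Hochberg adjustment over all genes tested. All 10 passed the filter on low counts. Of the 16049 genes tested, 24.3% were called in either direction, 11.8% higher and 12.5% lower. Of the 7 called members, 5 had a change under 0.5 on the log2 scale, as did 49.2% of all called genes. The median log2 fold change was 0.08 over the members and 0.00 over all tested genes. The values of the groups lay wholly apart for 8 of the 10 members, which held for 40.3% of tested genes. Because the members were chosen with earlier results known, these shares describe them and test nothing. Leaving out any 1 library, 3 members instead of 4 were called higher. Without Scramble1 or without JagKO4, 1 member instead of 3 was called lower, and without Scramble2, Scramble3 or JagKO2, 2 were.

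Library totals ranged from 37036772 to 43923565 counts, so that 3 counts were worth 0.068 to 0.0811 CPM. CPM is a gene's count scaled to its library total, here with TMM factors, which correct totals for composition. Jag2, the targeted gene, had 155 counts over Scramble and 97 over JAG2KO, with overlapping CPM values and a log2 change of -0.58 (SE 0.39, edgeR adjusted p = 0.318). An edited gene can still be transcribed, so this level checks no label. The cell type is labelled as lung, but of 12 lung epithelial markers the surfactant genes Sftpa1, Sftpb and Sftpd and the factor gene Nkx2-1 had 0 counts in every library. The 12 summed to 15.4 to 15.8 CPM in Scramble and 25.0 to 28.1 CPM in JAG2KO, wholly apart, with 2 of 5 tested higher (Hopx and Ager) and 0 lower. Without Scramble2, Scramble3, JagKO3 or JagKO4, 1 was called higher, and the part of such cells in the members' values was not tested.

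**Figure D1:**
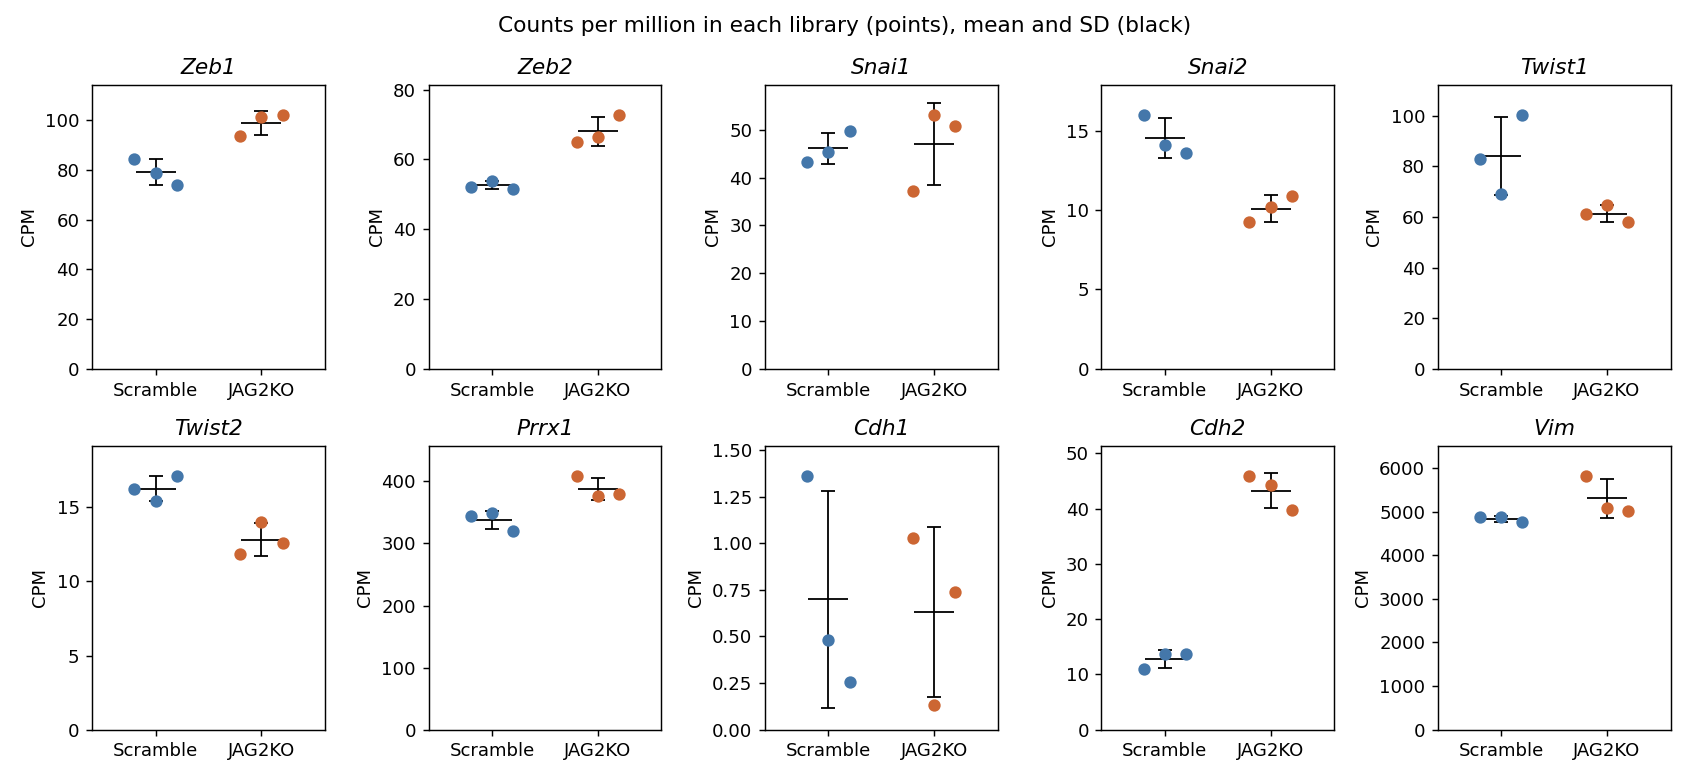
CPM (y axis, linear, from 0) of each of the 10 member genes in the 3 Scramble and the 3 JAG2KO libraries, with each point 1 library, bars at the group mean and error bars of 1 SD. Cdh2 sits at 10.9 to 13.7 CPM in Scramble and 39.7 to 45.9 CPM in JAG2KO, while the points of Snai1 and Cdh1 overlap between the groups.

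Zeb1 and Zeb2 encode zinc finger and homeodomain repressors that both carry target sites of the miR-200 family in the 3′ untranslated ends of their transcripts. The family has 2 seed sequences (bases 2 to 8, in capitals in the mature microRNAs below, from RefSeq, GRCm38.p6). They are shown because the Zeb genes hold the most matches to both among the members.
mmu-miR-200b-3p: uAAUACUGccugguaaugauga
mmu-miR-200c-3p: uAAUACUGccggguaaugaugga
mmu-miR-429-3p: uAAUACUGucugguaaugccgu
mmu-miR-200a-3p: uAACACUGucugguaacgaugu
mmu-miR-141-3p: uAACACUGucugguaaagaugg

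The site that pairs with the seed of miR-200b, miR-200c and miR-429 is CAGTATT on the transcript. It occurred 5 times in the longest 3′ untranslated end of Zeb1 (2401 bases) and 5 times in that of Zeb2 (4941 bases) in GENCODE M21, on the transcript strand. Of 20815 genes, 6 held 5 or more matches, and 13.4% held any. Snai1 and Snai2 held 1 match each, and the other 6 members had none in this window. The site for the seed of miR-200a and miR-141, CAGTGTT, occurred 4 times in Zeb1, 4 times in Zeb2 and 1 time in Snai2. Of all genes, 52 (0.25%) held 4 or more, and 17.3% held any. Longer ends can hold more matches. Among genes with an end of like length, 0.274% held as many CAGTATT matches as Zeb2 and 0.0349% as many as Zeb1. For CAGTGTT these shares were 1.74% and 0.174%. The 5 CAGTATT matches of Zeb2, in capitals within 21 bases, lie at chr2:44988167-44988187, chr2:44988102-44988122, chr2:44987740-44987760, chr2:44987655-44987675 and chr2:44987521-44987541 (GRCm38, minus strand, written 5′ to 3′).
Zeb2 match 1: catacatCAGTATTttattat
Zeb2 match 2: agtgcatCAGTATTacgattc
Zeb2 match 3: cccgtgtCAGTATTagacgac
Zeb2 match 4: attttgtCAGTATTacaccaa
Zeb2 match 5: tagtgtaCAGTATTatagttc
A match describes the letters of the window and not binding. The gene rows Mir200a, Mir200b, Mir200c, Mir141 and Mir429 had 0 counts in all 6 libraries, but polyA libraries do not capture mature microRNAs, so their level is unknown here.

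Both Zeb genes were higher in JAG2KO. Zeb1 (ENSMUSG00000024238.15, chr18:5591860-5775467, plus strand, GRCm38) measured 84.4, 79.0 and 74.0 CPM in Scramble1, Scramble2 and Scramble3. It measured 93.5, 101 and 102 CPM in JagKO2, JagKO3 and JagKO4. Every JAG2KO library lay above every Scramble library. The mean went from 79.1 ± 5.19 CPM (SD, n = 3) to 99.0 ± 4.76 CPM (SD, n = 3), or 0.32 as log2 fold change (SE 0.07, edgeR adjusted p = 0.00584). Zeb2 (ENSMUSG00000026872.18, chr2:44983632-45117395, minus strand) measured 52.2, 53.9 and 51.7 CPM in the Scramble libraries and 64.9, 66.5 and 72.6 CPM in JagKO2, JagKO3 and JagKO4. Its Scramble values differed by little, and again the groups did not overlap. Zeb2 thus rose by 0.37 on the log2 scale (SE 0.07, adjusted p = 0.00249 by edgeR), from 52.6 ± 1.18 CPM to 68.0 ± 4.05 CPM (SD, n = 3 each). Both calls held under all 13 other settings tried, with adjusted p of 0.000265 to 0.0322 for Zeb1 and 6.32e-05 to 0.018 for Zeb2. Zeb2os, a gene on the opposite strand, covers 3.27% of Zeb2 exon bases and had 33 counts over all libraries. Zeb genes are also expressed in stromal cells such as fibroblasts and endothelial cells. Endothelial markers summed to 47.5 to 51.7 CPM in Scramble and 68.6 to 93.9 CPM in JAG2KO (7 of 13 higher, 0 lower), and the part of such cells in the Zeb values was not tested.

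The Snail genes, which encode zinc finger repressors, did not move together. Snai1 (ENSMUSG00000042821.7, chr2:167538195-167542814, plus strand) measured 43.2, 45.3 and 49.7 CPM in Scramble1 to Scramble3. In JagKO2 it measured 37.1 CPM, the lowest of the 6 libraries, and in JagKO3 and JagKO4 53.0 and 50.9 CPM, the highest. The groups overlapped, with means of 46.1 ± 3.32 CPM and 47.0 ± 8.63 CPM (SD, n = 3 each). Snai1 had a log2 difference of 0.03 (adjusted p = 0.89 by edgeR), with a 95% interval of -0.23 to 0.29, that is 0.852-fold to 1.22-fold. Snai2, also called Slug (ENSMUSG00000022676.7, chr16:14705852-14709385, plus strand), measured 16.0, 14.1 and 13.6 CPM in the Scramble libraries. Its level was 9.22, 10.2 and 10.9 CPM in JagKO2, JagKO3 and JagKO4, below all Scramble values. Snai2 fell by 0.53 on the log2 scale (SE 0.12, adjusted p = 0.00882 by edgeR), from 14.5 ± 1.25 CPM to 10.1 ± 0.83 CPM (SD, n = 3 each). Without Scramble1, the highest Snai2 library, the call was lost (log2 fold change -0.44, adjusted p = 0.0525), and likewise without both Scramble1 and JagKO2 (-0.39, adjusted p = 0.0674).

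Twist1 and Twist2 encode basic helix-loop-helix factors that bind DNA as dimers with E proteins, and both fell. Twist1 (ENSMUSG00000035799.6, chr12:33957671-33959829, plus strand) measured 83.0, 69.0 and 100.1 CPM in Scramble1, Scramble2 and Scramble3 and 61.1, 64.6 and 58.1 CPM in JagKO2, JagKO3 and JagKO4. The Scramble libraries spread widely, with a SD of 15.6 CPM around 84.0, and the JAG2KO libraries narrowly, with a SD of 3.24 CPM around 61.3. Twist1 fell by 0.46 on the log2 scale (SE 0.11, adjusted p = 0.0112 by edgeR) and lost its call without JagKO4 (-0.42, adjusted p = 0.0515). Twist2 (ENSMUSG00000007805.4, chr1:91801461-91848028, plus strand) measured 16.2, 15.4 and 17.1 CPM in the Scramble libraries against 11.8, 14 and 12.6 CPM in JagKO2, JagKO3 and JagKO4. The groups were apart, but by little: the highest JAG2KO value of Twist2 was 14 CPM and the lowest Scramble value 15.4 CPM. On the log2 scale Twist2 fell by 0.34 (SE 0.11, adjusted p = 0.0441 by edgeR). The call on Twist2 ended without Scramble1, Scramble2, Scramble3, JagKO2 or JagKO4, each left out alone (adjusted p = 0.0848 to 0.134), and without a low-count filter (adjusted p = 0.0729). An antisense gene, Gm29100, covers 46.5% of Twist2 exon bases, and whether reads were counted by strand is not known, which leaves the level of Twist2 uncertain. Gm29100 had 173, 127 and 111 counts in Scramble1 to Scramble3 and 86, 90 and 119 counts in JagKO2 to JagKO4.

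Prrx1, a paired-related homeobox gene of mesenchymal cells (ENSMUSG00000026586.16, chr1:163245119-163313710, minus strand), measured 344, 349 and 321 CPM in Scramble1 to Scramble3. In JagKO2, JagKO3 and JagKO4 it measured 409, 376 and 380 CPM, each above the highest Scramble value. Prrx1 rose by 0.20 on the log2 scale (SE 0.06, adjusted p = 0.0381 by edgeR), from 338 ± 15.1 CPM to 388 ± 17.7 CPM (SD, n = 3 each). The call on Prrx1 was lost when any 1 of Scramble1, Scramble2, Scramble3, JagKO2, JagKO3 or JagKO4 was left out (adjusted p = 0.0505 to 0.155). JagKO2 was the library with the most Prrx1 and also with the highest sum of 14 fibroblast markers, 1945 CPM against 1265 to 1407 CPM in Scramble and 1324 to 1390 CPM in the other JAG2KO libraries. Of these markers 3 were called higher and 2 lower, that is 35.7% called against 24.3% of all tested genes. Without Scramble3 or without JagKO3 5 were called higher, and without a low-count filter 9. Their part in the Prrx1 value was not tested. In bulk libraries a different share of cells of a type and a different amount of RNA per cell cannot be told apart.

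**Figure D2:**
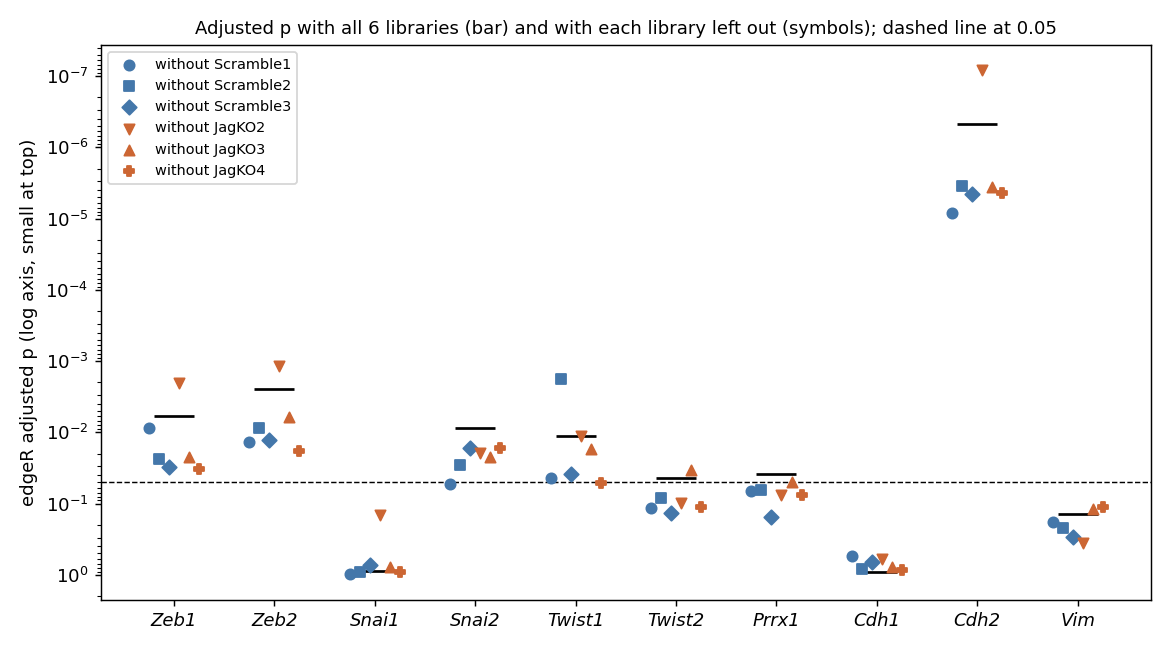
Adjusted p of the edgeR test (y axis, log scale, small values at the top) for each member (x axis). Bars show the fit with all 6 libraries, symbols the fits with each library left out in turn, and the dashed line 0.05. Cdh2, Zeb1 and Zeb2 stay under 0.05 in every fit, Prrx1 in none of the 6 that leave a library out, and Snai1, Cdh1 and Vim in no fit.

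Cdh1 encodes E-cadherin, the adhesion molecule of epithelial cells, and was low in both groups. This gene (ENSMUSG00000000303.12, chr8:106603351-106670246, plus strand) had 60, 21 and 10 counts in Scramble1, Scramble2 and Scramble3 and 38, 5 and 32 counts in JagKO2, JagKO3 and JagKO4. These counts were worth 1.36, 0.482 and 0.254 CPM in Scramble and 1.03, 0.133 and 0.739 CPM in JAG2KO. Highest and lowest values differed by more within each group than between the group means of 0.699 ± 0.584 and 0.633 ± 0.456 CPM (SD, n = 3 each). Cdh1 had a log2 difference of -0.15 (adjusted p = 0.907 by edgeR), and its 95% interval ran from -1.69 to 1.40, or 0.309-fold to 2.64-fold. That interval holds the wide spread between libraries of the same group, from 10 to 60 counts within Scramble and from 5 to 38 within JAG2KO. The sign turned without Scramble1 (0.78) and without JagKO3 (0.32).

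Epcam, another epithelial surface gene, was also highest in Scramble1: it measured 1.45, 0.505 and 0.178 CPM in Scramble1 to Scramble3 and 0.622, 0.266 and 0.623 CPM in JagKO2 to JagKO4. The sum of 5 skeletal muscle genes was 34.4, 10.4 and 5.60 CPM in Scramble1 to Scramble3 and 56.1, 6.60 and 102 CPM in JagKO2 to JagKO4. Scramble1, JagKO2 and JagKO4 were thus the 3 libraries with the most Cdh1, the most Epcam and the most muscle RNA. The 6 skin epithelial genes listed with them (Krt5, Krt14, Krt1, Krt10, Trp63 and Dsg3) did not follow this order: they summed to 2.54, 2.57 and 1.86 CPM in Scramble1 to Scramble3 and 22.9, 8.76 and 9.65 CPM in JagKO2 to JagKO4, wholly apart by group. Of the joint list of 11 skin and muscle genes, 22.2% of the 9 tested were called, against 24.3% of all tested genes. Krt5 and Krt14 were called higher (2 genes) and 0 lower. Without Scramble1 5 were called higher, and without JagKO3 6. Whether such cells in the sort carry the Cdh1 counts was not tested.

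**Figure D3:**
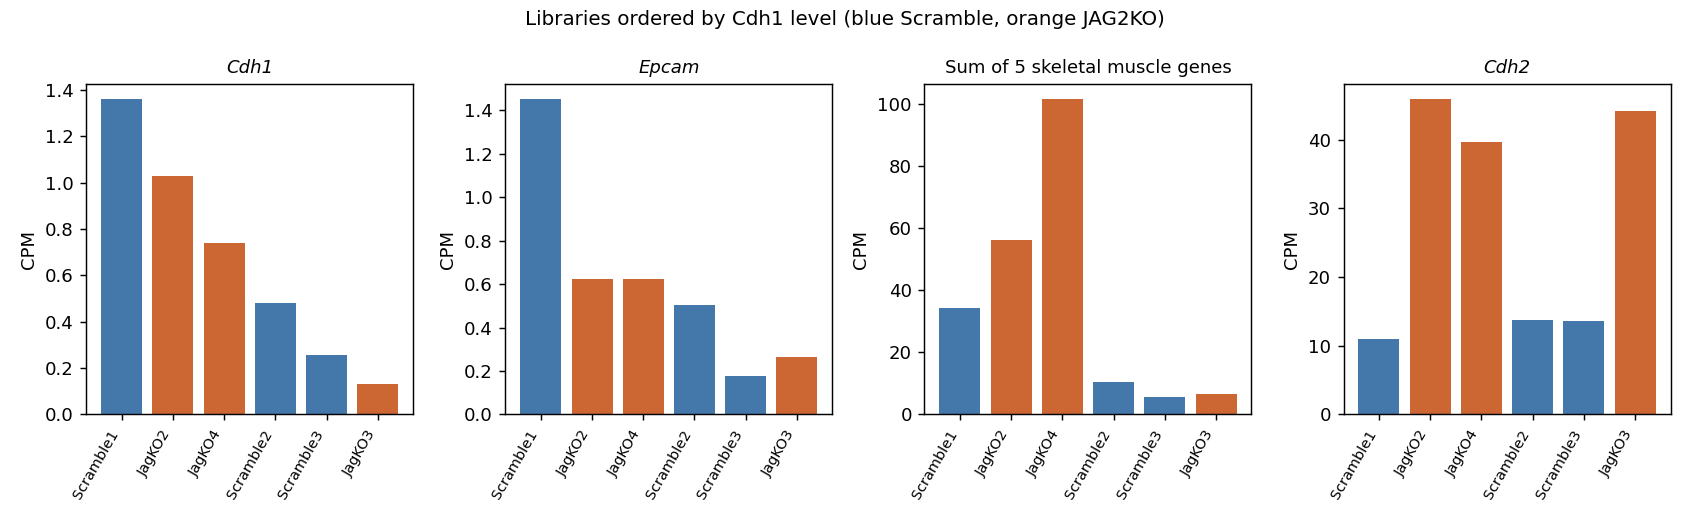
CPM (y axes, linear, from 0) of Cdh1, Epcam, the sum of 5 skeletal muscle genes and Cdh2 in the 6 libraries, 1 bar per library, ordered in every panel by Cdh1 level. Scramble1, JagKO2 and JagKO4 are highest for Cdh1, Epcam and the muscle sum, while Cdh2 divides by group.

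Cdh2 encodes N-cadherin, the classical cadherin of neural and mesenchymal cells, and showed the largest change of the 10 members. The gene (ENSMUSG00000024304.14, chr18:16588877-16809246, minus strand) measured 10.9, 13.7 and 13.6 CPM in Scramble1, Scramble2 and Scramble3. It measured 45.9, 44.2 and 39.7 CPM in JagKO2, JagKO3 and JagKO4. The lowest JAG2KO value was far above the highest Scramble value, and the spread within each group was small. The mean went from 12.8 ± 1.59 CPM to 43.3 ± 3.19 CPM (SD, n = 3 each), which is 1.76 on the log2 scale (SE 0.11, adjusted p = 4.71e-07 by edgeR). The 95% interval of the fold was 2.87 to 3.99, and over 13 other settings the log2 fold change was 1.61 to 1.82. Cdh2 is also expressed in pericytes and smooth muscle. Their markers summed to 70.8 to 91.7 CPM in Scramble and 133 to 188 CPM in JAG2KO, with 9 of 11 tested higher and 0 lower, and their part in the Cdh2 value was not tested.

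The ratio of Cdh2 to Cdh1 counts did not separate the groups, because of the spread of Cdh1. It was 8.05, 28.5 and 53.6 in Scramble1 to Scramble3 and 44.7, 332 and 53.8 in JagKO2 to JagKO4. A ratio of a factor wholly higher in JAG2KO to a factor wholly lower there must separate the groups, so the following values describe size alone. The Zeb2 to Snai2 ratio of counts was 3.27, 3.83 and 3.80 in Scramble and 7.04, 6.54 and 6.68 in JAG2KO. Zeb1 to Twist1 was 1.02, 1.14 and 0.74 in Scramble and 1.53, 1.57 and 1.75 in JAG2KO. These pairs were picked after their values were seen and are given with no test.

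Vim encodes vimentin, the intermediate filament protein of mesenchymal cells, and was the most abundant member. Its row (ENSMUSG00000026728.9, chr2:13573927-13582826, plus strand) measured 4867, 4870 and 4763 CPM in Scramble1 to Scramble3 and 5814, 5090 and 5011 CPM in JagKO2 to JagKO4. All JAG2KO values were above all Scramble values, but only JagKO2 by a wide margin. The log2 fold change of 0.13 (SE 0.06) did not pass the test (edgeR adjusted p = 0.141), and the 95% interval of the fold was 0.999 to 1.21.

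Per kilobase of exon, which allows genes to be compared, the order of levels in Scramble began with Vim (1019 CPM per kb), followed by Twist1 (51.6), Prrx1 (30.5) and Snai1 (28.4). Prrx1 and Snai1 overlapped across libraries. Below them came Zeb1 (7.71), Snai2 (7.19, overlapping Zeb1), Twist2 (5.12), Zeb2 (2.64), Cdh2 (1.58) and Cdh1 (0.153), all in CPM per kb. In JAG2KO, Twist1 (37.6 CPM per kb) and Prrx1 (35.1 CPM per kb) overlapped at the head of the factors. Cdh2 stood at 5.36 CPM per kb there, overlapping Snai2 at 4.99 and above Twist2 at 4.04 and Zeb2 at 3.41. Exons of all GENCODE M21 transcripts of a gene were joined for its length, which lowers the value of a gene with long rare exons such as Zeb2.

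Genes beside the members on the chromosome were compared, since neighbours can share a change. Of all genes tested, 11.8% were higher and 12.5% lower. Of the 20 tested genes nearest to Cdh2, 10 on each side, 7 were higher and 2 lower (median log2 fold change 0.18), and 1, Ankrd29 (2.20), was at least as high as Cdh2. The 18 neighbours of Zeb1, also on chromosome 18, had a median of 0.26, with 4 higher and 2 lower, and 7 were at least as high as Zeb1. Of the 346 other tested protein-coding genes of chromosome 18, 54 were higher and 28 lower. Around Zeb2 the median was 0.04, with 5 of 20 higher and 2 lower, and on all of chromosome 2, 112 of 1044 were higher and 152 lower. None of 20 neighbours of Snai2 had a log2 fold change as low as its own, and their median was -0.09. Near Twist1 the median was -0.06, with 0 higher and 3 lower, and near Twist2 it was -0.22, with 0 higher and 5 lower. On their whole chromosomes lower calls were also more frequent: 32 of 445 were higher and 132 lower on chromosome 12 (Twist1). On chromosome 1 (Twist2) 81 of 757 were higher and 157 lower. Prrx1 rose beside genes that on balance did not, with a median of -0.18, 1 higher and 4 lower of 20. Members that were not called had such neighbours too. Of 20 each, 7 were higher and 2 lower near Vim, 1 higher and 8 lower near Cdh1, and 2 higher and 5 lower near Snai1. Whether a member's difference is shared with its region or chromosome was not tested.

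**Figure D4:**
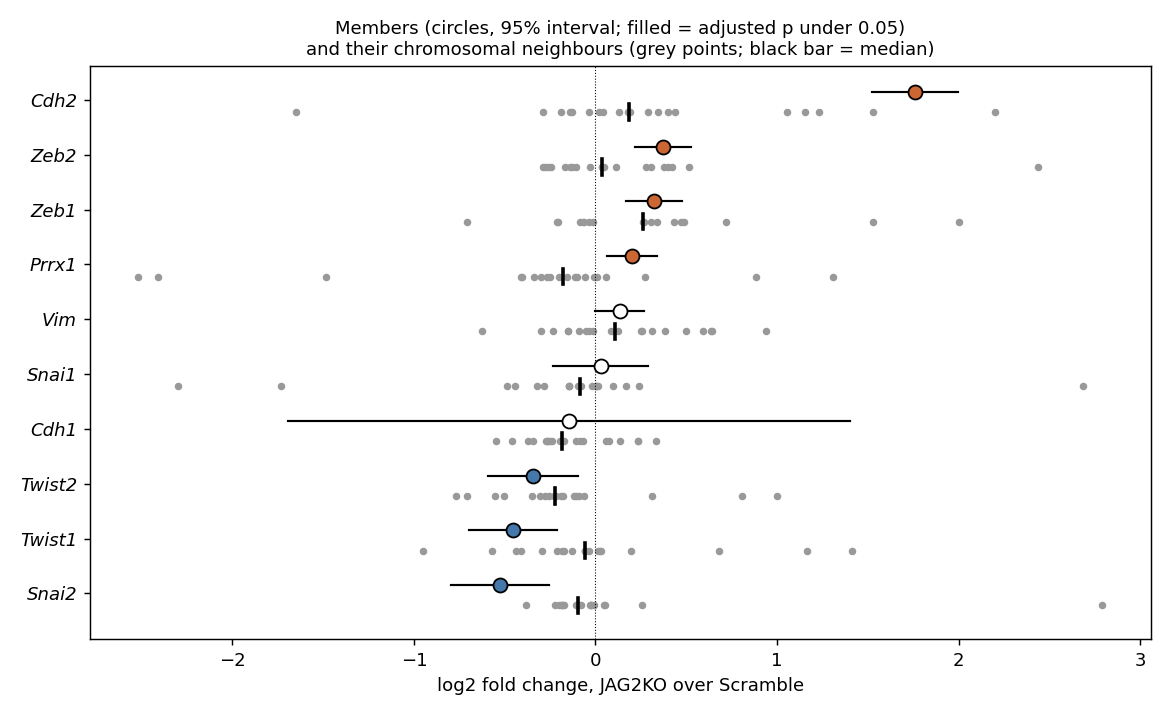
Log2 fold change (x axis, JAG2KO over Scramble) of each member (large points) and of its nearest tested neighbours on the chromosome (small points), with the median of the neighbours as a bar. Cdh2 lies beyond all but 1 of its 20 neighbours, and Snai2 below all 20.

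By the pattern over the 6 libraries, the genes most like Cdh2 were Zfpm2, Lgi2 and Fndc7. Their log2 CPM, centred on each gene's mean, differed from that of Cdh2 by a root mean square of 0.073, 0.0737 and 0.0989 among 11496 genes compared. They lie on chromosomes 15, 5 and 3 and had log2 fold changes of 1.74, 1.67 and 2.19. The genes most like Snai2 were Tmem181a, Cyb5r1 and Mad2l1, at root mean squares of 0.0451, 0.0481 and 0.0493. Their log2 fold changes were -0.43, -0.50 and -0.57. All were picked by these same 6 libraries, so fold changes near those of Cdh2 and Snai2 follow from the choice and are no separate result. Fndc7 measured only 0.725, 0.780 and 0.967 CPM in Scramble1 to Scramble3, where the 0.5 CPM added before the log lowers its difference.

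The genes around these members were described from 8 lists. Over all tested genes, 24.3% were called, 11.8% higher and 12.5% lower. Among other transcription factors of the transition, 3 of 13 tested genes were higher and 1 lower (30.8% called, median log2 fold change 0.28). Those higher were Tcf4 and Tcf3, whose E proteins are partners of Twist factors, and Tead2, a DNA-binding partner of YAP. Tcf4 went from 186 ± 18.1 to 275 ± 8.44 CPM and Tcf3 from 166 ± 13.1 to 232 ± 23.6 CPM (SD, n = 3). The log2 fold changes of Tcf4, Tead2 and Tcf3 were 0.56, 0.44 and 0.48 (edgeR adjusted p = 0.000213, 0.00029 and 0.00135). Without JagKO2, 5 genes of this list were called higher, and without Scramble1 or Scramble2 0 were called lower. Among 24 partners of the Snail, Twist and Zeb proteins, 6 were higher and 3 lower (37.5% called), with a median of 0.04. The leading genes were Id3, Id1 and Id2, which encode helix-loop-helix proteins that lack a basic region and bind E proteins away from DNA. Id3 measured 108, 120 and 145 CPM in Scramble and 220, 269 and 278 CPM in JAG2KO. For Id1 and Id2 the means went from 13.8 ± 2.89 to 45.4 ± 14.3 CPM and from 17.2 ± 3.0 to 29.0 ± 3.46 CPM (SD, n = 3). The log2 fold changes of Id3, Id1 and Id2 were 1.04, 1.72 and 0.75 (edgeR adjusted p = 4.18e-05, 0.00014 and 0.00145). Without Scramble1, 3 partners were called higher. Id genes are also expressed in endothelial cells, whose summed markers are given beside Zeb2, and their part in the Id values was not tested.

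Epithelial regulators and junction genes were mostly at low levels, as Cdh1 was. Of 17 epithelial transcription and splicing factor genes, 10 had too few counts to test, 0 were higher and 3 lower, and the median of the 7 tested was -0.83. Tfap2c fell from 3.17 ± 0.50 CPM to 0.164 ± 0.146 CPM (SD, n = 3), with 163, 136 and 106 counts in Scramble and 8, 0 and 12 in JAG2KO. Klf4, a Krüppel-like factor, fell from 63.3 ± 10.1 to 35.6 ± 8.41 CPM and Foxa2, a forkhead factor of endoderm, from 3.35 ± 0.453 to 1.74 ± 0.402 CPM (SD, n = 3). The log2 fold changes of Tfap2c, Klf4 and Foxa2 were -4.22, -0.83 and -0.95 (edgeR adjusted p = 0.000241, 0.00183 and 0.0197). The call on Foxa2 ended without Scramble1, Scramble3 or JagKO4 (adjusted p up to 0.073). Among epithelial junction and surface genes, 18 of 30 were not testable. Of the 12 tested 1 was higher and 1 lower (16.7% called, against 24.3% of all tested genes), with a median of -0.05. Ocln, a tight junction gene, fell from 16.8 ± 1.75 to 5.14 ± 0.617 CPM (SD, n = 3, log2 fold change -1.71, edgeR adjusted p = 6.08e-06). Dsp, a desmosome gene, had 22, 1 and 0 counts in Scramble1 to Scramble3 and 78, 29 and 44 in JagKO2 to JagKO4. Its log2 fold change of 2.85 (edgeR adjusted p = 0.04) lost its call without Scramble2, Scramble3, JagKO2 or JagKO4 (adjusted p up to 0.112) or with DESeq2 (adjusted p = 0.187), and was 6.43 without Scramble1. The skin epithelial genes given beside Cdh1 were likewise higher in all JAG2KO libraries and highest in JagKO2, and their part in the Dsp value was not tested.

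**Figure D5:**
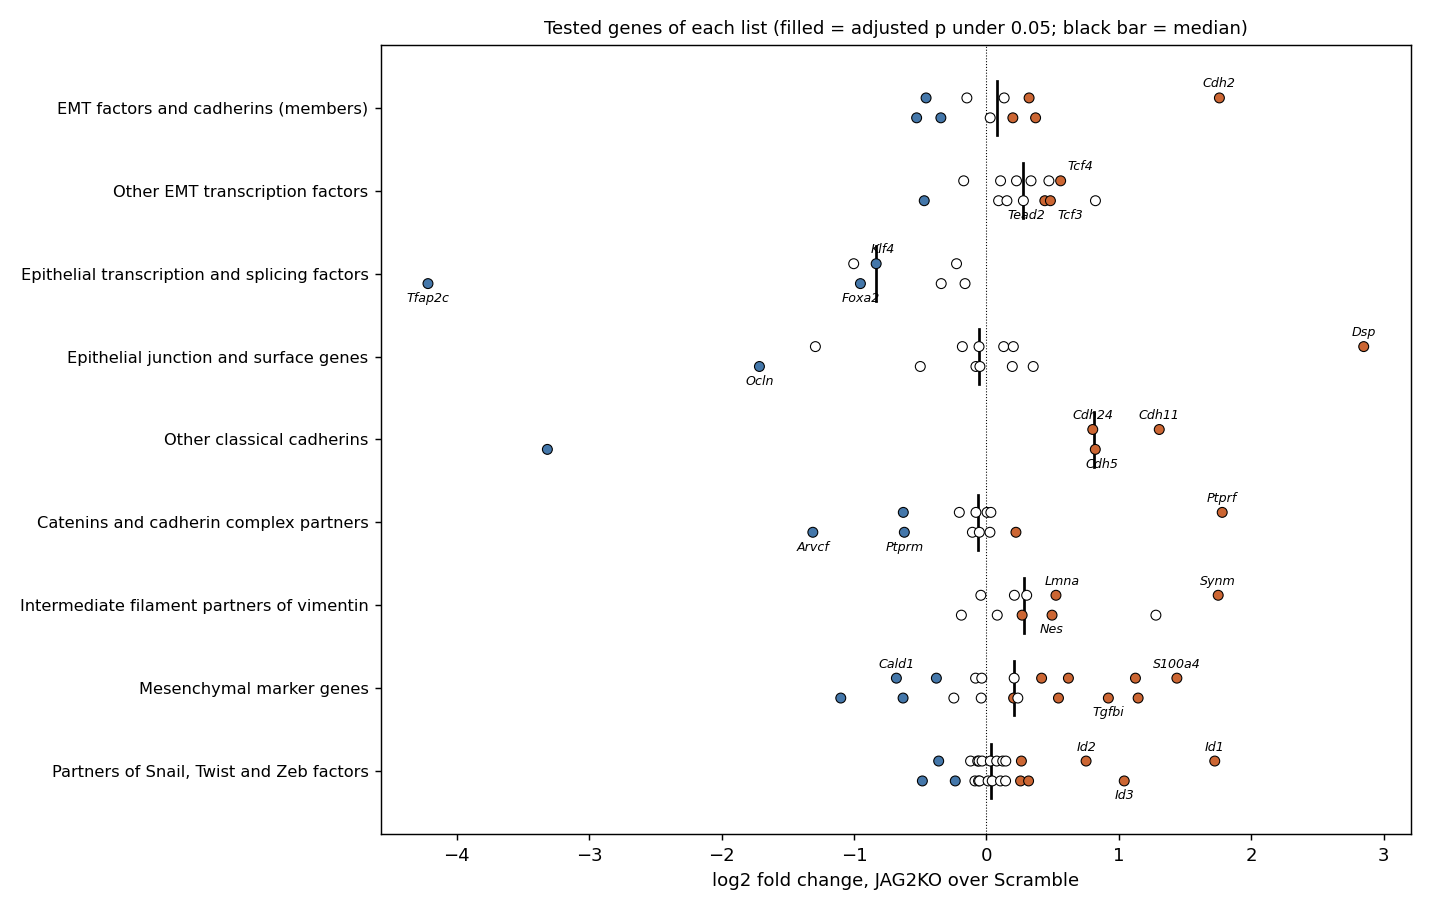
Log2 fold change (x axis, JAG2KO over Scramble) of every tested gene of the members and of 8 related lists (rows), with filled points for an adjusted p under 0.05 and a black bar at the list's median. The medians run from -0.83 for epithelial factors to 0.81 for other cadherins, and Cdh2 stands alone at 1.76 among the members.

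Other cadherin genes also differed, though 12 of 16 had too few counts to test. Cdh5, the cadherin of endothelial cells, measured 7.89, 7.55 and 7.33 CPM in Scramble and 13.8, 11.6 and 14.9 CPM in JAG2KO. Cdh11, a mesenchymal cadherin gene, measured 3.04, 1.54 and 2.80 CPM in Scramble and 6.43, 6.84 and 4.96 CPM in JAG2KO, and Cdh24 rose from 5.07 ± 0.357 to 8.84 ± 1.77 CPM (SD, n = 3). Neither set of values overlapped. The log2 fold changes of Cdh5, Cdh11 and Cdh24 were 0.82, 1.31 and 0.80 (edgeR adjusted p = 0.000999, 0.00339 and 0.00591), below that of Cdh2. Cdh6 was lower, with 20, 28 and 21 counts in Scramble and 6, 0 and 0 in JAG2KO (edgeR adjusted p = 0.0237), and its call ended without any library but JagKO2. Per list, 3 of 4 tested cadherin genes were higher and 1 lower. Cdh5 is also 1 of the 13 endothelial markers summed beside Zeb2 (7 higher, 0 lower), and the part of endothelial cells in its value was not tested. Of 12 catenins and other partners of the cadherin complex, 2 were higher and 3 lower, with a median of -0.07. That is 41.7% called, against 24.3% of all tested genes. Arvcf, a catenin gene of the p120 family, and Ptprm, a receptor phosphatase gene, had log2 fold changes of -1.31 and -0.62 (adjusted p = 0.00661 and 0.00138 by edgeR). Ptprf, another receptor phosphatase gene, rose from 0.346 ± 0.0564 to 1.19 ± 0.166 CPM (SD, n = 3, log2 fold change 1.78, edgeR adjusted p = 0.00812). Without Scramble1, Scramble3, JagKO2 or JagKO3 1 partner was called higher. Ctnnb1, the beta-catenin gene, measured 581 ± 17.6 and 592 ± 28.7 CPM (SD, n = 3) and did not pass the test (edgeR adjusted p = 0.794).

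Among genes of other intermediate filaments and lamins, listed as partners of vimentin, 4 of 10 tested were higher and 0 lower, with a median of 0.29. Nes, the nestin gene, rose from 128 ± 6.38 to 181 ± 8.46 CPM and Synm, the synemin gene, from 0.679 ± 0.0635 to 2.29 ± 0.728 CPM (SD, n = 3). Lmna, which encodes the A-type lamins of the nucleus, measured 1708 ± 128 and 2459 ± 476 CPM (SD, n = 3). The log2 fold changes of Nes, Synm and Lmna were 0.50, 1.75 and 0.53 (edgeR adjusted p = 0.000206, 0.00281 and 0.00461). Of 18 tested mesenchymal marker genes, 8 were higher and 4 lower, with a median of 0.21. That is 66.7% called, against 24.3% of all tested genes. Tgfbi, a matrix gene induced by TGF-beta, rose from 60.5 ± 1.71 to 115 ± 1.39 CPM, and Cald1, the caldesmon gene, fell from 933 ± 36.7 to 583 ± 28.4 CPM (SD, n = 3). S100a4 rose from 4.53 ± 0.876 to 12.3 ± 1.35 CPM (SD, n = 3), though Gm42674, a gene model on the same strand, covers 51.7% of its exon bases and makes its level uncertain. The log2 fold changes of Tgfbi, Cald1 and S100a4 were 0.92, -0.68 and 1.44 (edgeR adjusted p = 8.83e-07, 1.27e-05 and 9.2e-05). In the same libraries, macrophage markers summed to 64.4 to 73.8 CPM in Scramble and 97.9 to 118 CPM in JAG2KO (4 of 13 higher, 1 lower). Without Scramble2 or without Scramble3 2 macrophage markers were called higher, without Scramble2 0 were called lower, and without a low-count filter 7 were called higher. Lymphocyte markers summed to 1.90, 1.58 and 1.93 CPM in Scramble1 to Scramble3 and 1.65, 5.43 and 3.95 CPM in JagKO2 to JagKO4, so that JagKO3 and JagKO4 lay above all Scramble libraries. Of these, 0 of 3 tested were called, and 1 was called higher without JagKO2, by DESeq2 or without a low-count filter. The part of these cells in the values of the lists was not tested.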

How the data were processed

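RNA was measured by polyA sequencing in 6 libraries, 3 Scramble and 3 JAG2KO. The deposited table holds raw counts of reads, as whole numbers, made by the authors for each gene. STAR 2.7.7a and HTSeq 0.11.2 are named per the submitters' processing notes. Not given in the sources used here are the genome build, the annotation and the strand setting, and reads shared with overlapping genes may be split or lost. Gene positions, exon lengths and overlaps were read from GENCODE M21 (GRCm38), and microRNA sequences from RefSeq. Column names gave each library's group. By stable ID, 55154 rows matched a symbol, 54587 of them also by version, and the 180 others held 0.00193% of counts.

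Counts were fitted in R 4.3.3 with edgeR 4.0.16: filterByExpr (minimum count 10, minimum total 15), TMM factors, and the quasi-likelihood F test of JAG2KO against Scramble, two-sided, with Benjamini-Hochberg adjustment over all tested genes and calls under 0.05. Standard errors are the log2 fold change divided by the square root of F, and 95% intervals use the same error. Levels are TMM-scaled CPM. Within groups, the chi-square between library pairs was divided by its degrees of freedom (genes of 20 counts or more). It was 12.2 to 15.0 within Scramble and 14.0 between JagKO3 and JagKO4. JagKO2 differed most, with 31.0 against JagKO3 and 25.4 against JagKO4. No library was therefore treated as a repeat.

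The text names the 10 members, Jag2, the 3 called genes with the smallest p of each related list, and the 3 genes (mean CPM of at least 2, pseudocount 0.5) whose pattern was nearest to that of the 2 called members with the largest change. Epcam, Cdh6, Ctnnb1, Ankrd29 and the cell type markers given by name were named after their values were seen. The members and lists were chosen with earlier results of these data known. The fit was repeated with DESeq2 1.42.0 and limma-voom (limma 3.58.1), with RLE factors or unscaled totals, without a filter or at CPM 1 in 3 libraries, and leaving out each library. Leaving out both Scramble1 and JagKO2, the libraries with the most fibroblast marker RNA in their groups, was added after seeing the data. The procedures were tested on simulated data, whose changes were all larger than those of every called member but Cdh2.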

Additional observations from a re-analysis of the deposited data

How the results depend on the processing

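Of 129 alternative values of the members' log2 fold changes, 106 kept their direction and side of the threshold. Cdh2, Zeb1, Zeb2 and Vim did so in all 13 settings each, Vim by staying not called. The log2 fold change of Vim went from 0.13 to 0.064 without JagKO2. Leaving out 1 library at a time gave log2 fold changes of -0.064 to 0.17 for Snai1, -0.59 to -0.44 for Snai2 (adjusted p up to 0.0525), -0.57 to -0.31 for Twist1 (up to 0.0515), -0.41 to -0.29 for Twist2 (up to 0.134), 0.16 to 0.23 for Prrx1 (0.0505 to 0.155) and -0.67 to 0.78 for Cdh1. Snai1 was reversed without Scramble1 (-0.0044), JagKO3 (-0.064) or JagKO4 (-0.033), and Cdh1 without Scramble1 (0.78) or JagKO3 (0.32), neither past the threshold. Between 1 and 3 members were called lower in these fits, and 3 instead of 4 were called higher in each. Without both Scramble1 and JagKO2, 1 member was called lower, and Snai2 (-0.39, adjusted p = 0.0674), Twist2 (-0.29, adjusted p = 0.153), Prrx1 (0.17, adjusted p = 0.0856) and Cdh1 (0.25) lost their call or turned. Without a low-count filter Twist2 had -0.33 (adjusted p = 0.0729). These fits hold fewer libraries or more genes, and no other cause was tested. A filter of CPM 1 in 3 libraries left Cdh1 untested. RLE factors and library totals moved the median of all genes by 0.005 on the log2 scale. No paired analysis was possible because the labels state no pairing of Scramble with JAG2KO libraries. The JAG2KO columns are numbered 2 to 4 while the titles run from 1 to 3. These columns thus carry no replicate numbers shared with the titles, and the replicate block was not run. Cdh1 and Jag2 had few counts and a wide spread within groups, and depth as a limit was not varied; 10 epithelial factor and 18 junction genes had too few counts to test.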
